A study of Mus musculus with 16 samples.

Results

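Nitric oxide and prostanoids are short-lived vasoactive signals made by endothelial cells (ECs), and 7 genes of their synthesis and reading were followed by name, out of 38926 gene names in the table of metaphyseal and bone marrow ECs and in the Lats2 table and 21603 gene identifiers in the Yap1/Taz files. They were Nos3, Ddah2, Gucy1a3 and Gucy1b3 for nitric oxide, and Ptgs1, Ptgs2 and Ptgis for prostanoids. All 7 were found in every data set, and Gucy1a3 and Gucy1b3 are named Gucy1a1 and Gucy1b1 in current annotation.

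Nos3 encodes endothelial nitric oxide synthase, which makes nitric oxide from arginine. Nitric oxide binds soluble guanylate cyclase, a dimer of an alpha and a beta subunit, and the cGMP made by this enzyme relaxes smooth muscle and acts on platelets. Prostanoids are made from arachidonic acid, which the cyclooxygenases turn into prostaglandin H, and terminal synthases turn that product into prostacyclin, prostaglandin E or thromboxane.

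RNA-seq of sorted mouse bone ECs, all on a C57BL/6 background, gave 16 libraries in 3 comparisons. In the first, 3 libraries of ECs from the metaphysis (mpECs) and 3 of ECs from the marrow cavity of the diaphysis (bmECs) came from 3-week-old wildtype mice with the Cdh5-mT/nG reporter, which marks ECs by fluorescence. The second had 3 control and 3 ECKO libraries of bone ECs at postnatal day 21, all from mice with floxed Yap1 and floxed Wwtr1 (the gene of Taz), Cdh5CreERT2 negative in controls and positive in ECKO. The third had 2 Lats2 Cont libraries, from Lats2flx/flx mice without Cdh5CreERT2, and 2 Lats2 cKO libraries, in which this Cre was present. According to the methods, the ECs of this comparison came from 3-week-old mice as well. Cdh5CreERT2 is active in ECs after tamoxifen, which Yap1/Taz pups received on postnatal days 6 to 8 according to the methods, and the controls carried the floxed alleles without Cre. The comparison of mpECs with bmECs asks how the zones of the bone vasculature differ, and the others ask what loss of Yap1 and Taz, or of the kinase Lats2 that restrains them, does to bone ECs.

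Values are FPKM, which scale read counts by gene length and library size, so that levels of different genes can be compared. Reads recovered from them numbered 4878021 to 15429656 per library. The targeted genes went against the labels in part. Wwtr1 was at 9.88 to 10.3 FPKM in Yap1/Taz controls and at 15.3, 19.6 and 19.5 FPKM in the libraries labelled ECKO, a log2 fold change of 0.78 (SE 0.12, limma with Benjamini-Hochberg adjusted p = 0.0272), and Yap1 overlapped between these groups (0.995 to 1.62 against 0.989 to 1.43 FPKM). Lats2 was at 23.4 and 24.0 FPKM in Lats2 Cont and at 19.2 FPKM in both libraries labelled Lats2 cKO, with a log2 fold change of -0.29 (limma adjusted p = 0.125). These values sum all exons and do not show a deleted exon on its own. In bone ECs freshly isolated from the mutants, the paper reports fewer Yap1 and Wwtr1 transcripts by quantitative PCR. It also reports fewer Lats2 transcripts in ECs of Lats2 mutants. The 10 endothelial markers were above 0 in every library and summed to 1304 to 1688 FPKM in the mpEC and bmEC libraries. RNA of other cells was present too. In the mpEC and bmEC libraries 5 erythroid genes summed to 25648.5 to 55584 FPKM and 8 neutrophil genes to 9726 to 28511 FPKM. Macrophage and monocyte genes summed to 1111 to 2241 FPKM there. In the other libraries these lists summed to 210.1 to 5750, 720.7 to 3973 and 102.1 to 1070 FPKM.

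Promoter sequences were read for the genes that carried the main differences. The lines show the 250 bases before the transcript start from RefSeq (GRCm38.p6), 5′ to 3′ on the strand of the gene, of the cyclooxygenases, which differed in opposite directions between mpECs and bmECs, and of Ddah2, which had the smallest adjusted p of the 7 genes in that comparison. Capitals mark a match to any of 5 motifs searched on both strands: ACGTG (hypoxia response core), GGAATG (TEAD, the partner of Yap1 and Taz), TATAAA (bound by TBP), CGTCA (cAMP response half-site) and CACCC (KLF). Ptgs1 is at chr2:36230176-36230425 on the plus strand, Ptgs2 at chr1:150099781-150100030 on the plus strand and Ddah2 at chr17:35058785-35059034 on the plus strand.
Ptgs1: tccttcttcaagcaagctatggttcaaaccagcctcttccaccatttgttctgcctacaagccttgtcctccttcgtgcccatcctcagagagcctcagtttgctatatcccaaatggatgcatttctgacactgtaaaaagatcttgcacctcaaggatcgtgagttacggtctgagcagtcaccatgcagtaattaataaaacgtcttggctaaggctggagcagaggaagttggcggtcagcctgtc
Ptgs2: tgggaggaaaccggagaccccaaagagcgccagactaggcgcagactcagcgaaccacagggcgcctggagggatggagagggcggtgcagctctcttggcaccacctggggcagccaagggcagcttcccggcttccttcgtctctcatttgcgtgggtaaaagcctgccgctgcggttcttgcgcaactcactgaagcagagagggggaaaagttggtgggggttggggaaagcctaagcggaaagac
Ddah2: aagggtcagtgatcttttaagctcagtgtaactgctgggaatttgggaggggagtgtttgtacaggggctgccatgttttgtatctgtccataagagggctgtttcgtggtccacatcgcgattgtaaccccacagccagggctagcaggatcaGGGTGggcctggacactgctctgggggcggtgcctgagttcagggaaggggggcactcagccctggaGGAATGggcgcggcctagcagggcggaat
The windows of Ptgs1 and Ptgs2 held none of the 5 motifs. That of Ddah2 held GGAATG, 29 to 24 bases before the start, and CACCC on the other strand (GGGTG), 96 to 92 bases before the start. Of 27025 promoter windows of this length, 12.6% held GGAATG, 51.3% CACCC, 16.6% ACGTG, 13.0% TATAAA and 17.9% CGTCA. A match is a description of letters and not a binding site. GC content was 48.0% for Ptgs1, 61.6% for Ptgs2 and 58.0% for Ddah2.

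Between the zones of the bone vasculature, Nos3, Ddah2 and Ptgs2 were lower and Ptgs1 was higher in bmECs than in mpECs. Of the 7 genes, 4 reached the minimum mean of 1 FPKM and were tested, and all 4 were called at an adjusted p under 0.05 (3 lower, 1 higher). For comparison, 23.5% of the 11422 genes tested were called, 10.5% lower and 13.0% higher. None of the 4 overlapped between the groups, which held for 41.3% of the genes tested.

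**Figure D1:**
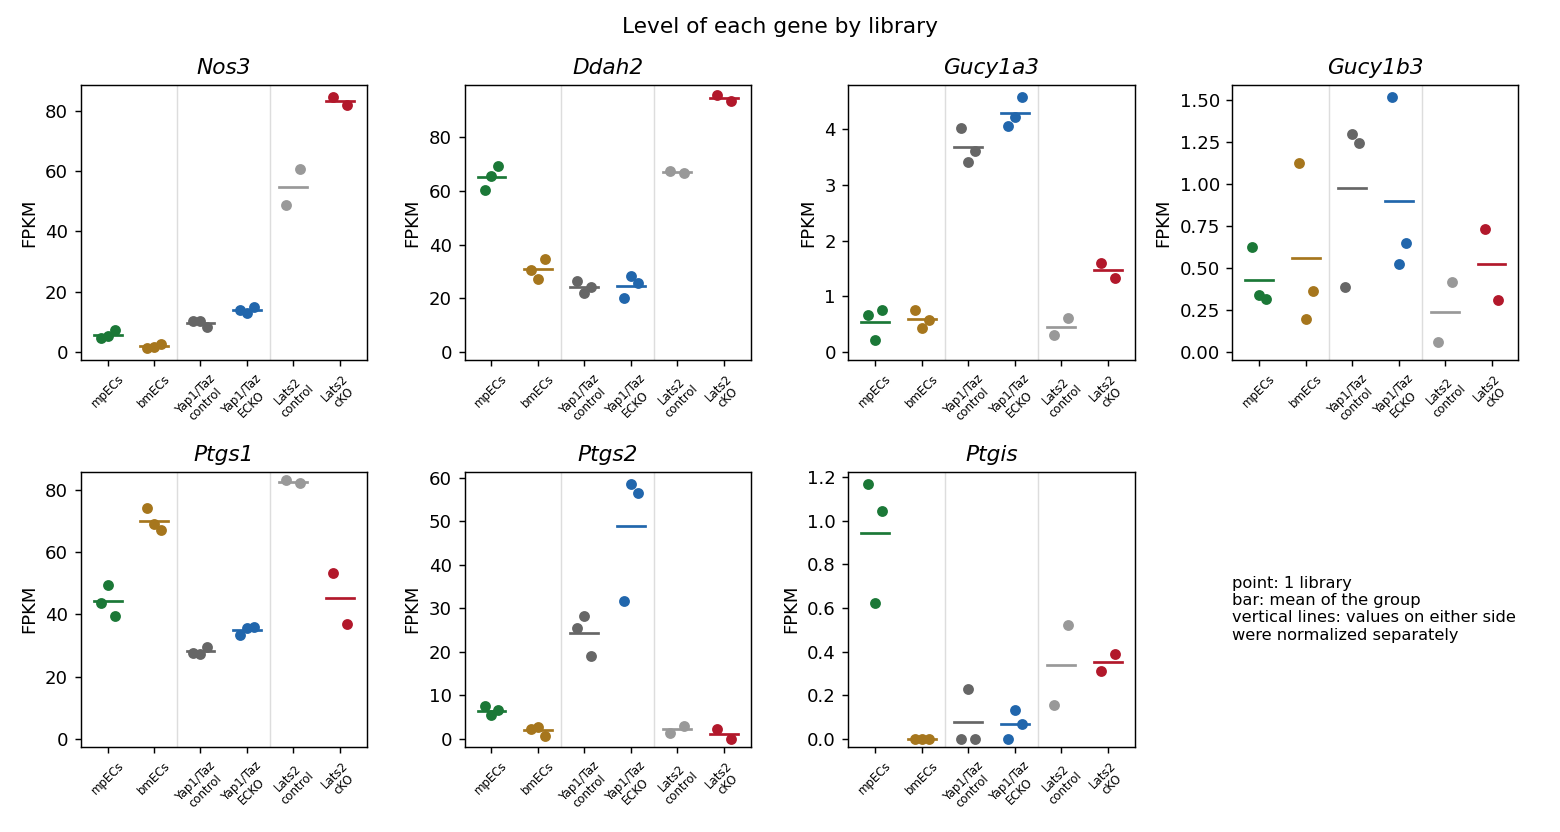
FPKM (vertical axis) of the 7 genes in each library, with 1 point per library and a bar at the mean of the group; the 3 pairs of groups were normalized separately. Nos3, Ddah2 and Ptgs2 are lower in all 3 bmEC libraries than in all 3 mpEC libraries, and Ptgs1 is higher.

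Nos3 (chr5:24364810-24384474, plus strand, GRCm38) was at 4.60, 5.31 and 7.25 FPKM in mpECs and at 1.41, 1.64 and 2.59 FPKM in bmECs. Every mpEC library lay above every bmEC library, and the mean was 3.04-fold lower in bmECs (5.72 ± 1.37 against 1.88 ± 0.626 FPKM, SD, n = 3 each). The log2 fold change was -1.23 (SE 0.20, limma adjusted p = 0.00357). Relative to Cdh5, which encodes VE-cadherin of endothelial junctions, Nos3 was at 2.62% to 3.85% in mpECs and at 0.856% to 1.42% in bmECs. Of its exon bases, 32.3% lie opposite exons of Atg9b and of the antisense gene Gm15587. Both were at 0.254 FPKM or less in these 6 libraries.

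Ddah2 (chr17:35059035-35062095, plus strand) encodes a dimethylarginine dimethylaminohydrolase, a family of enzymes that degrade methylated arginines, the natural inhibitors of nitric oxide synthases. It was at 60.5, 65.6 and 69.5 FPKM in mpECs and at 30.5, 27.3 and 34.9 FPKM in bmECs. The groups were far apart relative to their spread, with 65.2 ± 4.51 and 30.9 ± 3.78 FPKM (SD, n = 3) and a log2 fold change of -1.06 (SE 0.11, limma adjusted p = 0.000378). Its level was well above that of Nos3, and the ratio of Nos3 to Ddah2 was 0.0761 to 0.104 in mpECs and 0.0463 to 0.0743 in bmECs.

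The subunits of soluble guanylate cyclase were at the lower end of the measured range. Gucy1a3 (chr3:82092427-82145789, minus strand) was at 0.215 to 0.752 FPKM in mpECs and at 0.432 to 0.757 FPKM in bmECs. Gucy1b3, which lies 17737 bases away on the same strand (chr3:82032006-82074689), was at 0.317 to 0.622 and at 0.195 to 1.12 FPKM. Both overlapped between the groups, both had a mean under 1 FPKM and were left out of the fit, and the exact two-sided permutation test gave p = 0.8 for each.

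Ptgs1 (chr2:36230426-36252272, plus strand) encodes cyclooxygenase-1, the form found in most resting tissues and in platelets. It was at 43.8, 49.5 and 39.4 FPKM in mpECs and at 74.0, 69.0 and 67.2 FPKM in bmECs. All bmEC libraries were above all mpEC libraries, and the log2 fold change was 0.66 (SE 0.10, limma adjusted p = 0.0026). The 11 megakaryocyte and platelet markers summed to 346.5, 81.2 and 135.9 FPKM in mpECs and to 499.4, 82.3 and 217.9 FPKM in bmECs, with overlap, and none of the 10 tested was called. Their part in the level of Ptgs1 was not tested.

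Ptgs2 (chr1:150100031-150108227, plus strand) encodes cyclooxygenase-2, the form induced by growth factors, cytokines and stress. It was at 7.46, 5.42 and 6.56 FPKM in mpECs and at 2.38, 2.78 and 0.759 FPKM in bmECs. The groups did not overlap, the mean was 3.29-fold lower in bmECs, and the log2 fold change was -1.40 (SE 0.28, limma adjusted p = 0.0089). Immediate early genes, which respond within minutes to stimulation or cell sorting, went the other way: 3 of the 11 were called higher and none lower in bmECs. They summed to 947, 948 and 1374 FPKM in mpECs and to 3088, 3638 and 1102 FPKM in bmECs, where replicate 3 was low for these genes and for Ptgs2. Of 8 tested neutrophil markers, 1 was called lower and 0 higher in bmECs. They summed to 11956 to 28511 FPKM in mpECs and to 9726 to 14143 FPKM in bmECs, with overlap. Of 7 tested macrophage and monocyte markers, 2 were lower and 1 was higher (1291 to 2241 FPKM in mpECs, 1111 to 1467 in bmECs). The part of the immediate early genes and of these markers in the level of Ptgs2 was not tested.

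The balance of the cyclooxygenase genes followed from both. The ratio of Ptgs2 to Ptgs1 was 0.170, 0.109 and 0.167 in mpECs and 0.0321, 0.0403 and 0.0113 in bmECs. The groups did not overlap, and the exact two-sided permutation test of the log2 ratio gave p = 0.1, the smallest value that 3 against 3 libraries allow.

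**Figure D2:**
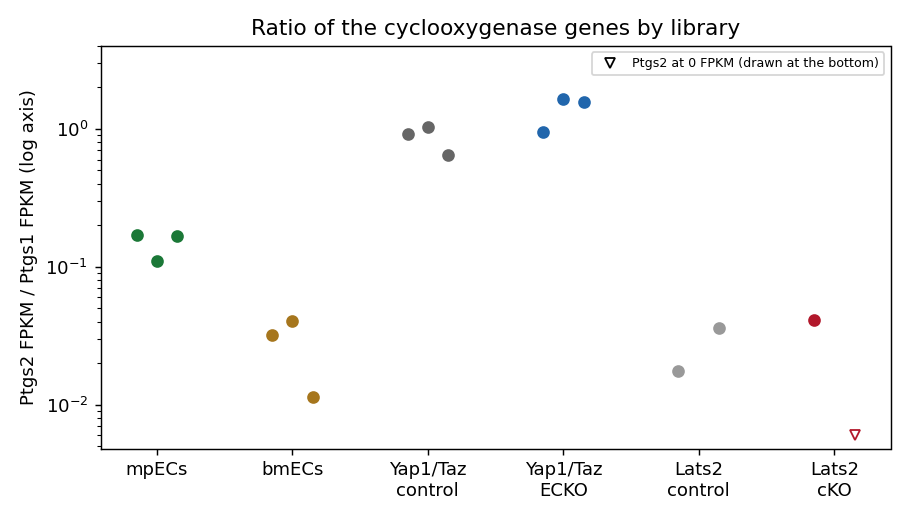
Ratio of Ptgs2 to Ptgs1 FPKM in each library on a log axis, with an open triangle for the library in which Ptgs2 was at 0. The mpEC libraries (0.109 to 0.170) lie above the bmEC libraries (0.0113 to 0.0403), and the Yap1/Taz libraries lie between 0.645 and 1.65.

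Ptgis (chr2:167191805-167240604, minus strand) encodes prostacyclin synthase, the terminal enzyme of the prostanoid that keeps vessels open and platelets at rest. It was at 1.17, 0.625 and 1.04 FPKM in mpECs, which came from 37, 16 and 26 reads, and at 0 in all 3 bmEC libraries. With each count of 0 in bmECs set to a chosen limit of 3 reads, the mean would be 7.77-fold lower in bmECs. Its overall mean was under 1 FPKM, so that it was not among the 4 genes tested, and the exact permutation test gave p = 0.1. Of the markers of other cells, 5 of 7 tested osteoblast and chondrocyte genes were called lower in bmECs (146.3 to 743.7 FPKM summed in mpECs, 42.6 to 55.0 in bmECs), while 3 of 6 pericyte, smooth muscle and stromal genes were higher (203.1 to 294.9 against 639.4 to 667.0 FPKM). These were the ion channel genes Kcnj8 and Abcc9 and the leptin receptor gene Lepr, while the pericyte marker Pdgfrb was at 0.174 FPKM or less in all 6 libraries. Their part in the levels of Ptgis, Nos3, Ddah2 and Ptgs2 was not tested.

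Beyond the 7 genes, 64 genes of nitric oxide supply, cGMP signalling, prostanoid synthesis and prostanoid receptors were read from the same fits. Their lists were chosen with earlier results of these data known. A share of calls above that of all genes is therefore not independent of these results, in any of the 3 comparisons. Of the 43 tested in bmECs against mpECs, 10 were higher and 8 lower, that is 41.9% against the 23.5% of all genes, with a median log2 fold change of -0.10 where that of all genes was near 0. At a mean of 5 FPKM or more, 9 of 31 were higher and 6 lower, where 2079 of all 6839 genes were called. Without bmEC replicate 1 the counts at the minimum of 1 FPKM were 6 and 5, and with endothelial scaling 7 and 6. Among 19 tested genes of arginine, cofactor and synthase handling, 4 rose and 5 fell, against 1 and 3 with either of these changes. Ddah1, the other dimethylarginine dimethylaminohydrolase, fell with Ddah2, from 12.9 ± 0.469 to 3.79 ± 0.648 FPKM (SD, n = 3, log2 fold change -1.55, limma adjusted p = 0.000124). Nostrin, which encodes an adaptor that moves endothelial nitric oxide synthase away from the membrane, had a log2 fold change of -1.33, and Ass1, for argininosuccinate synthase of arginine resynthesis, one of -1.23. The largest rise in this group at a mean of 5 FPKM or more was that of Qdpr, which regenerates the cofactor tetrahydrobiopterin (log2 fold change 0.45, and 18.6% of its exon bases lie opposite another gene).

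In cGMP signalling 3 of 5 tested genes rose and none fell. They were the phosphodiesterases Pde9a, from 3.56 ± 0.340 to 11.5 ± 1.20 FPKM, and Pde2a, from 56.9 ± 13.6 to 97.2 ± 15.5 FPKM (SD, n = 3), which degrade cGMP, and Npr2, a receptor that makes it. In prostanoid synthesis and turnover 2 of 16 rose and 2 fell. Ptges, the inducible prostaglandin E synthase, rose from 1.75 ± 0.342 FPKM in mpECs to 17.0 ± 0.752 FPKM in bmECs (log2 fold change 2.72, SE 0.12, limma adjusted p = 1.51e-05). Fam213b, for a prostamide and prostaglandin F synthase, rose from 36.7 ± 3.56 to 122.7 ± 37.4 FPKM. The genes that fell remove prostaglandins: Slco2a1, the uptake transporter, with a log2 fold change of -1.13, and Hpgd, the degrading dehydrogenase, with -1.12. Of 3 tested receptors, Ptger2, a prostaglandin E receptor that raises cAMP, rose from 9.30 ± 1.63 to 35.1 ± 3.96 FPKM, and Tbxa2r, the thromboxane receptor, fell. Of these named genes, Pde2a, Npr2 and Tbxa2r lost their calls in 3 or 4 alternatives, with limma adjusted p-values of up to 0.0652, and the others were called in all 14.

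In the Yap1/Taz comparison, none of the 5 genes tested was called, at a background of 1.31% of 11320 genes (0.883% higher and 0.424% lower), and 2 of the 5 were called by limma-voom on recovered reads. At an unadjusted p under 0.05, 2023 of all genes and 3 of the 5 passed. The levels of 4 genes did not overlap between the groups, against 23.6% of the genes tested, and all 4 were higher in the libraries labelled ECKO. Markers of other cells differed too. Osteoblast and chondrocyte markers summed to 38.0 to 49.6 FPKM in controls and to 7.02 to 20.5 FPKM in ECKO libraries, and 3 of 6 tested were called lower. The sums of B lineage markers (193.2 to 221.9 against 156.2 to 161.0 FPKM) and of pericyte, smooth muscle and stromal markers (113.2 to 123.5 against 142.7 to 179.8 FPKM) did not overlap either, with none called. Their part in the levels of the 7 genes was not tested.

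**Figure D3:**
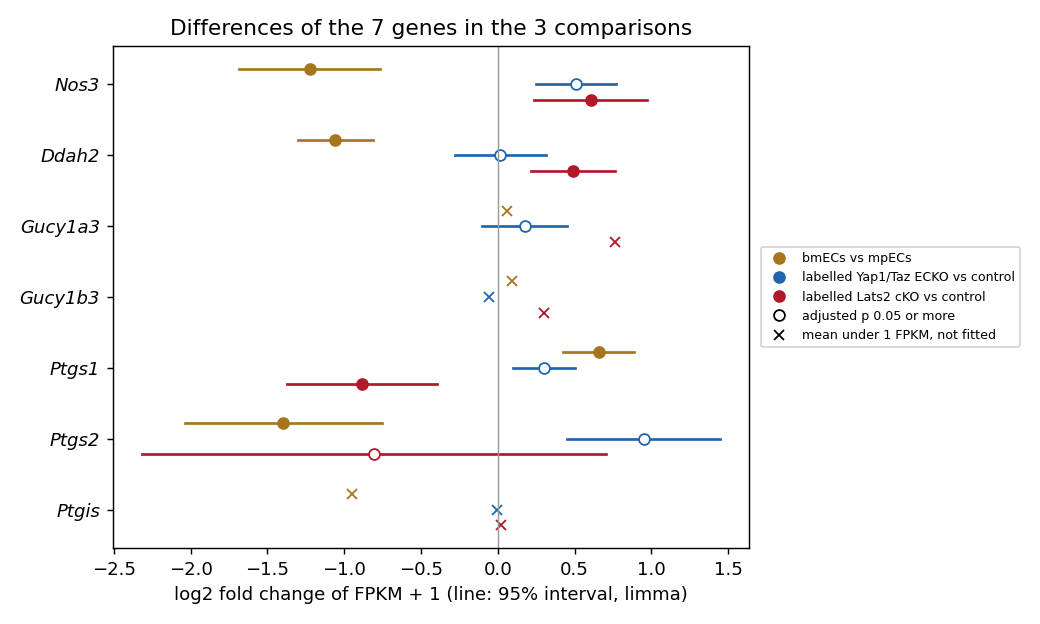
Log2 fold changes of FPKM + 1 (horizontal axis) of the 7 genes in the 3 comparisons, with 95% intervals from limma, filled points for an adjusted p under 0.05, open points otherwise and crosses for genes with a mean under 1 FPKM. Nos3 lies at -1.23 in bmECs against mpECs and at 0.51 and 0.61 in the comparisons of libraries labelled as mutant with controls.

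Ptgs2 was at 25.6, 28.2 and 19.1 FPKM in controls and at 31.8, 58.5 and 56.5 FPKM in the libraries labelled ECKO. ECKO replicate 1 was close to the controls and the others were well above them. The log2 fold change was 0.95 (SE 0.22, 95% interval 0.45 to 1.45) and missed the threshold (limma adjusted p = 0.066). It was called without ECKO replicate 1, with a log2 fold change of 1.23 and a limma adjusted p of 0.00824. Leaving out any of the other 5 libraries gave 0.79 to 1.06 with limma adjusted p-values of 0.0911 to 0.266. That library also stood apart in neutrophil markers, which summed to 3973 FPKM there, to 1788 and 1683 FPKM in the other ECKO libraries and to 2126 to 2763 FPKM in controls. Immediate early genes summed to 2696, 3297 and 3509 FPKM in ECKO replicates 1, 2 and 3 and to 2551 to 2723 FPKM in controls, with none called. The part of both lists in the level of Ptgs2 was not tested. The ratio of Ptgs2 to Ptgs1 was 0.645 to 1.03 in controls and 0.953 to 1.65 in ECKO libraries, with overlap (exact permutation p = 0.2).

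Nos3 was at 10.2, 10.2 and 8.17 FPKM in controls and at 14.0, 12.9 and 14.8 FPKM in ECKO libraries. All ECKO libraries were higher, with a log2 fold change of 0.51 (SE 0.12, 95% interval 0.25 to 0.77, limma adjusted p = 0.0654), which missed the threshold. Atg9b, opposite part of Nos3, was at 0.573 to 0.908 FPKM in controls and at 0.651 to 0.867 FPKM in ECKO libraries. Gm15587 has no value in these libraries, so that reads from the strand opposite to Nos3 could not be checked. Ptgs1 was at 27.6, 27.4 and 29.6 FPKM in controls and at 33.4, 35.5 and 36.0 FPKM in ECKO libraries (log2 fold change 0.30, limma adjusted p = 0.125). The endothelial markers were also higher, at 553.1 to 581.9 FPKM summed in controls and at 638.7 to 753.6 FPKM in ECKO libraries, and 9 of them had a mean log2 difference of 0.31. With libraries scaled on these markers the log2 fold change of Nos3 shrank to 0.20 (limma adjusted p = 0.261) and that of Ptgs1 became -0.01. In bulk RNA of sorted cells, a larger share of ECs and more RNA per EC cannot be told apart.

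Gucy1a3, for the alpha subunit of soluble guanylate cyclase, was at 3.40 to 4.03 FPKM in controls and at 4.05 to 4.58 FPKM in ECKO libraries. The groups met almost at their edges, and the log2 fold change of 0.18 (95% interval -0.10 to 0.45, limma adjusted p = 0.494) turned to -0.14 with scaling on endothelial markers. Ddah2 overlapped, at 21.9 to 26.6 and 20.3 to 28.2 FPKM, with a 95% interval of -0.28 to 0.31 around a log2 fold change of 0.02. Gucy1b3 (0.389 to 1.30 against 0.526 to 1.52 FPKM) and Ptgis (0 to 0.226 against 0 to 0.133 FPKM, from 4 reads or fewer) were under 1 FPKM on average, and the exact permutation test gave p = 1 for both.

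Of 46 other pathway genes tested here, 1 was higher and 1 lower, which is 4.35% against the background of 1.31%. Npr1, a receptor that makes cGMP in response to natriuretic peptides, rose from 35.7 ± 2.73 to 59.8 ± 6.86 FPKM (SD, n = 3, log2 fold change 0.72, limma adjusted p = 0.0305). Qdpr fell from 21.8 ± 1.78 to 14.4 ± 0.622 FPKM (log2 fold change -0.57, limma adjusted p = 0.0387). Neither call was stable: both ended without the filter, without the trend and without ECKO replicate 2, ECKO replicate 3, control replicate 2 or control replicate 3, with limma adjusted p-values of 0.0634 to 0.184 for Npr1 and 0.0692 to 0.184 for Qdpr. That of Qdpr also ended without control replicate 1 (0.0538). The runs that ended both calls left 1 to 20 calls over all genes, against 148, so that these losses are not particular to Npr1 and Qdpr. With endothelial scaling the log2 fold changes were 0.41 and -0.88, and 1 of the 46 genes was called higher and 13 lower, where 77 of all genes were called higher and 3025 lower.

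In the Lats2 comparison Nos3 and Ddah2 were higher and Ptgs1 was lower in the libraries labelled Lats2 cKO. Of the 4 genes tested, 3 were called, 2 higher and 1 lower, at a background of 21.8% of 12453 genes (11.8% higher and 9.98% lower). With 2 libraries a group, 68.2% of the genes tested did not overlap between the groups, and an exact permutation test cannot go below p = 0.33. These calls were not stable: 0 were left without the filter or without the trend, and 1 each with quantile normalization and with endothelial scaling. Calls were also lost when single libraries were left out. Such a fit has a lone library in a group, so that these losses cannot be read as a property of the 3 genes. The log2 fold changes were then 0.45 to 0.76 for Nos3, 0.47 to 0.51 for Ddah2 and -1.14 to -0.62 for Ptgs1.

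Nos3 was at 48.6 and 60.7 FPKM in Lats2 Cont and at 84.4 and 82.0 FPKM in Lats2 cKO libraries. Both cKO libraries were above both controls, with a log2 fold change of 0.61 (SE 0.15, limma adjusted p = 0.0408). In this table the antisense gene Gm15587 was at 33.4 and 39.9 FPKM in controls and at 53.7 and 51.7 FPKM in cKO libraries, and Atg9b was at 2.04 FPKM in both controls and at 4.10 and 5.09 FPKM in cKO libraries. Gm15587 had been at 0.219 FPKM or less in mpECs and bmECs. The same held more widely: for 56 noncoding genes with over 30% of their exon bases opposite a single coding gene at over 10 FPKM in both tables, the median level was 0.433% of that coding gene in the mpEC and bmEC table and 80.4% in the Lats2 table. Whether reads were counted by strand is not given in the sources used here, so that in the Lats2 table reads of Nos3 and of the genes opposite to it cannot be told apart.

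Ddah2, which has no gene opposite its exons, was at 67.6 and 66.6 FPKM in controls and at 95.8 and 93.6 FPKM in cKO libraries. The groups of 2 libraries did not overlap, as was so for 68.2% of the genes tested. The log2 fold change was 0.49 (SE 0.11, limma adjusted p = 0.0338). With libraries scaled on the endothelial markers, which summed to 2369 and 2573 FPKM in controls and to 2831 and 3013 FPKM in cKO libraries, the log2 fold changes shrank to 0.19 for Ddah2 and 0.30 for Nos3, neither of them called.

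Ptgs1 was at 83.0 and 82.0 FPKM in controls and at 53.3 and 36.9 FPKM in cKO libraries. Controls were alike and cKO libraries lower and less alike, with a log2 fold change of -0.88 (SE 0.19, limma adjusted p = 0.0328). Megakaryocyte and platelet markers summed to 30.7 and 127.3 FPKM in controls and to 17.2 and 18.4 FPKM in cKO libraries, where Gp1bb, Gp9 and Treml1 were at 0, and 1 of 7 tested was called lower. Macrophage markers (637.7 to 736.3 against 102.1 to 351.5 FPKM) and neutrophil markers (2021 to 2973 against 720.7 to 909.8 FPKM) were lower in cKO libraries as well. The part of these 3 marker lists in the level of Ptgs1 was not tested.

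Ptgs2 was low in this table, at 1.46 and 2.96 FPKM in controls and at 2.17 and 0 FPKM in cKO libraries, with overlap (log2 fold change -0.81, limma adjusted p = 0.369). Gucy1a3 was at 0.302 and 0.614 FPKM in controls and at 1.59 and 1.34 FPKM in cKO libraries, a 3.20-fold higher mean. It did not overlap, but its overall mean was under 1 FPKM and it was not fitted (exact permutation p = 0.33, the smallest possible). Of 7 tested pericyte, smooth muscle and stromal markers, Acta2 (0.339 and 2.17 against 9.22 and 9.93 FPKM), Tagln (5.32 and 9.12 against 22.9 and 37.2 FPKM) and Rgs5 were called higher in cKO libraries, and Kcnj8 and Abcc9 lower. Their part in the level of Gucy1a3, which is also expressed in smooth muscle cells and pericytes, was not tested. Gucy1b3 (0.0618 and 0.414 against 0.733 and 0.309 FPKM) and Ptgis (0.157 and 0.524 against 0.310 and 0.391 FPKM) overlapped.

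Of 42 other pathway genes tested in the Lats2 comparison, 9 were higher and 9 lower, that is 42.9% against the background of 21.8%. All 18 calls ended without Cont replicate 1 or without Cont replicate 2, where no gene of the whole table was called, and 5 higher and 4 lower were left without cKO replicate 2. With endothelial scaling 5 were higher and 13 lower. At a mean of 5 FPKM or more, 9 of 35 were higher and 8 lower, where 2441 of all 8048 genes were called. In nitric oxide supply 7 of 20 rose and none fell, with a median log2 fold change of 0.35 where that of all genes was near 0. The 9 endothelial markers had a mean log2 difference of 0.31, and with libraries scaled on them 5 of the 20 were called higher, with a median of 0.049. Ddah1 rose from 5.49 ± 0.122 to 52.2 ± 18.9 FPKM (SD, n = 2, log2 fold change 2.99, limma adjusted p = 0.00758). Cav1, for caveolin-1, which binds and holds back nitric oxide synthase, rose from 239.0 ± 82.0 to 970.9 ± 54.5 FPKM. Nostrin, the inducible synthase Nos2 and the chaperone Hsp90aa1 rose too, with log2 fold changes of 1.37, 1.32 and 0.90.

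In prostanoid synthesis and turnover 1 of 13 rose and 5 fell in the Lats2 comparison. Ptges fell from 12.7 ± 0.184 to 2.52 ± 1.39 FPKM (SD, n = 2, log2 fold change -2.02, limma adjusted p = 0.0142), and Fam213b from 29.9 ± 3.39 to 7.55 ± 0.103 FPKM. Among the others that fell were Alox5ap and Alox5, leukotriene genes of leukocytes, beside the lower macrophage and neutrophil markers given above. Ptger2, the 1 called of 4 tested receptors, fell from 14.0 ± 0.210 to 2.05 ± 0.259 FPKM. In cGMP signalling 1 of 5 tested rose, Vasp for a substrate of cGMP-dependent kinase, with a log2 fold change of 0.77 that was not called with endothelial scaling, and 3 fell, among them Npr1 and Pde2a, the latter from 360.8 ± 12.5 to 192.1 ± 1.19 FPKM. Of the exon bases of Npr1, 11.7% lie opposite another gene.

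The comparison of bmECs with mpECs and that of Lats2 cKO with Lats2 Cont share no library, so that their calls can be set side by side. Nos3 and Ddah2 were lower in bmECs and higher in Lats2 cKO libraries, and Ptgs1 was higher in bmECs and lower in Lats2 cKO libraries. Of the other pathway genes 9 were called in both, 7 of them in opposite directions (Ddah1, Fam213b, Nostrin, Npr2, Pde2a, Ptger2 and Ptges) and 2 in the same direction (Slco2a1 lower, Spr higher). Opposite directions were the rule among all genes, at 919 (94.5%) of the 972 called in both, so this pattern is not particular to these pathways.

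**Figure D4:**
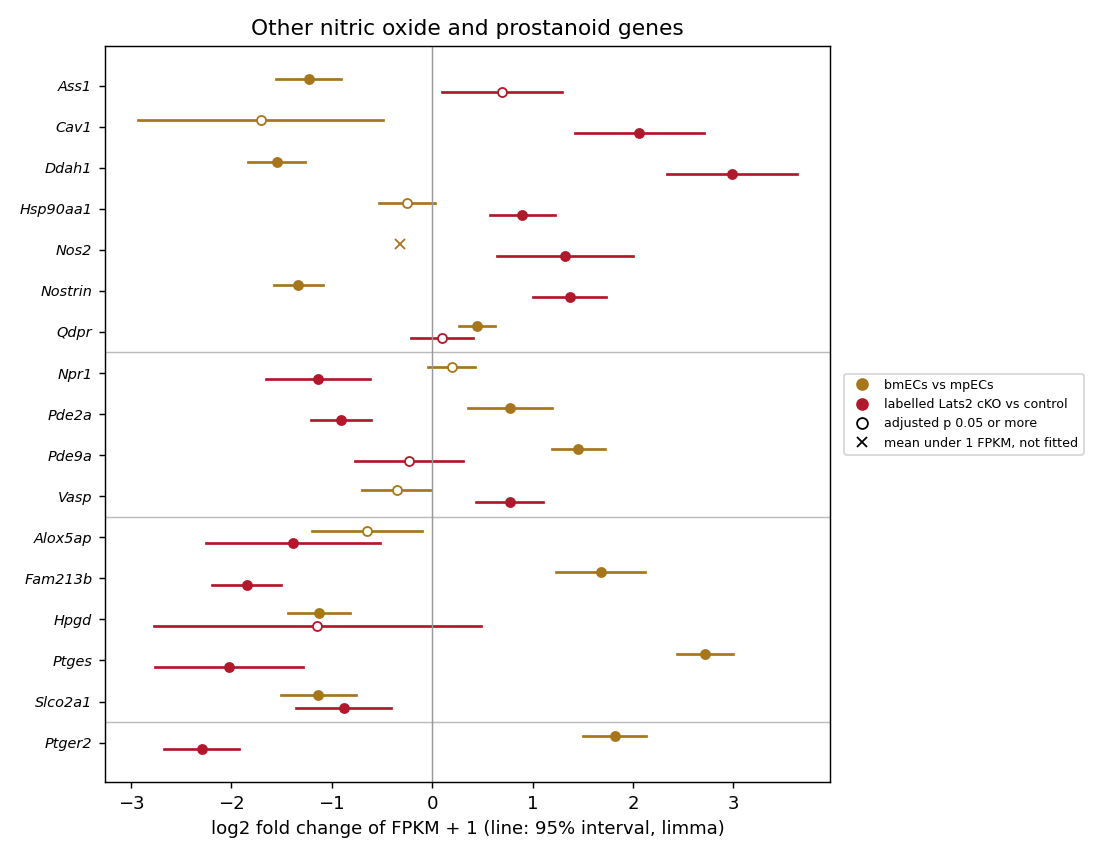
Log2 fold changes of FPKM + 1 with 95% intervals for 17 other pathway genes in bmECs against mpECs and in libraries labelled Lats2 cKO against Lats2 Cont; horizontal lines separate nitric oxide supply, cGMP signalling, prostanoid synthesis and turnover, and receptors. Ptges lies at 2.72 and -2.02, Ptger2 at 1.82 and -2.29, and Ddah1 at -1.55 and 2.99.

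Set side by side over the 6 groups, whose 3 tables were normalized separately, Nos3 had the highest levels in Lats2 cKO libraries, followed by Lats2 Cont, ECKO, Yap1/Taz controls, mpECs and bmECs, and no neighbours in this order overlapped. As a share of Cdh5 it ran from 0.856% in a bmEC library to 30.6% in a Lats2 cKO library. The values of Nos3 in the Lats2 groups are those that cannot be told apart from reads of the genes opposite to it. Outside these groups its share of Cdh5 reached 12.4%, in an ECKO library. Gm15587 has no value in the Yap1/Taz libraries, so that this point could not be checked there. Ddah2 was highest in Lats2 cKO libraries, similar in Lats2 Cont and mpECs, and lowest in bmECs and the Yap1/Taz groups, which overlapped. Ptgs1 was highest in Lats2 Cont, then in bmECs, then in Lats2 cKO and mpECs, which overlapped, and lowest in Yap1/Taz controls. Ptgs2 had another order, with ECKO and Yap1/Taz control libraries first, mpECs next, and Lats2 Cont, bmECs and Lats2 cKO overlapping below 3 FPKM. In the Yap1/Taz libraries Ptgs2 was thus near or above Ptgs1, and in all others the ratio of Ptgs2 to Ptgs1 was 0.170 or less. Gucy1a3 was above 3 FPKM only in the Yap1/Taz libraries, whereas the Gucy1b3 levels of all neighbouring groups overlapped.

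For the genes tested in all 3 comparisons, the genes with the nearest log2 fold changes among 9461 were listed by Euclidean distance over the 3 values. Nos3 was nearest to Gng11 (distance 0.124), Dbn1 (0.183) and Mboat2 (0.200). Ddah2 was nearest to C330027C09Rik (0.0845), Mastl (0.113) and Prim1 (0.124). Ptgs1 had 2210404O07Rik (0.0297), Snx13 (0.0912) and Mmrn2 (0.0936) as its neighbours. Those of Ptgs2 were farther away: Slco2a1 (0.394), the prostaglandin transporter of the pathway list, Cxcl2 (0.504) and Irg1 (0.522).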

How the data were processed

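The kit used for total RNA of sorted ECs (TruSeq Stranded) marks the strand. According to methods and labels, TopHat was the aligner, GRCm38 the genome and HTSeq 0.6.1 the counter used by the authors. The deposited values are FPKM, and the step from counts to FPKM and the strand setting are not given in the sources used here. No column was left without a sample (0 columns). The methods state that animals of both sexes were combined.

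Within each comparison, genes whose mean reached 1 FPKM were tested on log2(FPKM + 1) with limma 3.58.1 (R 4.3.3, empirical Bayes with trend), and p-values were adjusted by Benjamini-Hochberg over all genes tested and called under 0.05. Fold changes on this scale understate the change of low genes. The 3 comparisons were fitted separately, because their tables were normalized separately. Genes under the filter were tested by exact two-sided permutation. The fit was tested on simulated data.

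Reads were recovered as FPKM times gene length (GENCODE M21) times a size per library that makes low values whole: 62.6% to 70.2% of values up to 20 reads came within 0.02 of a whole read, where chance gives 4%. A count of 0 was read as at most 3 reads, which covers counting error only. Limma-voom on these reads called 2777, 378 and 3270 genes in the 3 comparisons. The 7 genes, the gene lists and the tests were chosen with earlier results of these data known. Pathway genes are named where called, with a mean of at least 5 FPKM, up to 6 per direction by size of change; Npr2, Tbxa2r, Alox5, Slco2a1 (Lats2) and Spr were added after their values were seen. A gene of the nitric oxide supply list is not reported here and was left out of the counts. Of the 7 genes, 5 matched a RefSeq promoter; Nos3 and Ptgis were not matched. Whether animals were pooled is not stated, and p-values measure the spread between libraries. Python 3.11.15 was used for tables and plots.

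Alternatives were a pseudocount of 0.1, no filter, a mean of at least 5 FPKM, quantile normalization, scaling on 9 endothelial markers, no trend, limma-voom, a replicate block and leaving out each library.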

Additional observations from a re-analysis of the deposited data

How the results depend on the processing

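The 4 calls in bmECs against mpECs held in every alternative that tested them (13 or 14 each), including all that left out 1 library, where 4 genes were called each time; a minimum mean of 5 FPKM left 2 genes to test, both called. Leaving out a library gave 1817 to 2357 calls over all genes, against 2682, and endothelial scaling gave 1748 (1235 higher and 513 lower, against 1481 and 1201).

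In the Yap1/Taz comparison the calls over all genes, 148 (100 higher and 48 lower), fell to 1 without the filter, 17 without the trend and 45 with the replicate block, and rose to 378 with limma-voom and 3102 (77 higher and 3025 lower) with endothelial scaling. Leaving out a library gave 1 to 293: 293 without ECKO replicate 1, 1 without ECKO replicate 2 or 3, 114, 20 and 14 without control replicates 1, 2 and 3. Of the 7 genes, 1 was called with endothelial scaling (Ptgs2, limma adjusted p = 0.0294), 2 with limma-voom (Nos3, adjusted p = 0.0435, and Ptgs2, 0.0241) and 0 to 1 when a library was left out. The log2 fold change of Ddah2 turned to -0.0069 with quantile normalization, -0.29 with endothelial scaling and to between -0.081 and 0.15 when a library was left out, below 0 without control replicate 2, ECKO replicate 2 or ECKO replicate 3. With endothelial scaling Gucy1a3 turned to -0.14 and Ptgs1 to -0.011.

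In the Lats2 comparison the calls over all genes, 2711 (1468 higher and 1243 lower), fell to 1389 without the filter and were 3459 (825 higher and 2634 lower) with endothelial scaling. They were 0 without Cont replicate 1 or 2, 2701 without cKO replicate 1 and 933 without cKO replicate 2, where the lone library is assumed to vary like the other group. Of the 3 calls among the 7 genes, 0 were left without the filter or without the trend, 1 with quantile normalization, 1 with endothelial scaling and 0 to 1 when a library was left out. The log2 fold change of Ptgs2 lay between -1.64 and 0.025 when a library was left out, above 0 without cKO replicate 2.

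Whether same-numbered libraries are pairs is not stated, and the main fit did not pair them. The deviations of same-numbered libraries correlated at 0.31, 0.088 and 0.10 for mpECs and bmECs. They were -0.18, -0.12 and -0.16 for Yap1/Taz and 0.065 for Lats2. Differently numbered libraries gave -0.21 to 0.12 for mpECs and bmECs, -0.15 to 0.24 for Yap1/Taz and -0.065 for Lats2. With 2 libraries a group, the Lats2 values can differ in sign only and cannot decide. For mpECs and bmECs the values do not exclude pairs. The replicate block gave 3072, 45 and 2655 calls over all genes and 4, 0 and 2 among the 7. The cause of these shifts was not tested. Depth limits Ptgis, Gucy1b3 and, outside the Yap1/Taz libraries, Gucy1a3, which rest on 0 to 57 reads per library.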
